A study of Homo sapiens with 6 samples.

Results

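Actin cytoskeleton and cell migration genes were followed in RNA sequencing of 293T cells, a human embryonic kidney cell line transformed with adenovirus DNA and carrying the SV40 large T antigen. The set held 46 of the 60669 genes counted, chosen as a list of symbols for actins, filament-binding proteins, motors, nucleators, small GTPases and the transcription factors that respond to actin. Of the 46 genes, 45 passed the filter on low counts and were tested. MYL9, the regulatory light chain of non-muscle and smooth muscle myosin II, had 0 counts in all 6 libraries. The libraries fell into 3 groups of 2: an MLL2 knockout made with CRISPR/Cas9, a knockdown of PRMT1 by short hairpin RNA, and control cells labelled wild type and untreated. MLL2 is a histone H3 lysine methyltransferase, and either KMT2B or KMT2D can be meant by the name. PRMT1 is the main asymmetric arginine methyltransferase of mammalian cells. Whether the knockout was a single clone is not stated. The alignment names in the file headers end in shNT for control and knockout and in shPR for the knockdown, which the labels do not explain, so whether the control and knockout cells carried a hairpin is not known. The labels call the libraries of a group biological replicates and give no batch, culture or day, so p-values measure only the spread between these samples.

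Actin filaments grow from monomers that profilin delivers and cofilin recycles, and they are started as branched networks by the Arp2/3 complex or as straight cables by formins. Small GTPases choose between these routes, and myosin II, tropomyosins and crosslinkers turn the filaments into contractile bundles and a cell cortex. The same genes are under feedback, because free actin monomer holds the MRTF coactivators away from SRF, the transcription factor that binds the CArG box of many actin and actin-binding genes.

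The libraries summed to 20061471 to 22351532 counts. PRMT1 had 790 and 795 counts in knockdown libraries and 8785 and 8667 in knockout libraries, against 6140 and 6479 in control libraries. KMT2B had 154 and 150 counts in knockout libraries and 135 and 153 in control libraries, and KMT2D had 449 and 494 in knockout libraries and 450 and 346 in control libraries. A CRISPR/Cas9 lesion need not lower the count of its gene, so these values check neither candidate. In the knockdown libraries KMT2D stood at 781 and 2176 counts, so the 2 libraries of that group differed from each other. Among 6 markers expected in 293T cells, VIM had 9825 to 15809 counts and NEFL 1171 to 7150 counts in the 6 libraries, while PAX2, a renal lineage gene, had 1 to 11. These markers differed between the groups and did not move alike. In the knockout and the knockdown, log2 changes against control were -2.42 and -2.32 for KRT8, -2.02 and -1.59 for NEFM and -1.18 and -2.67 for NEFL, all called lower. In the knockdown KRT18 was called lower at -0.71 and VIM higher at 0.55. Neither was called in the knockout, and PAX2 was called in neither depletion. Of 6 smooth muscle markers, MYH11, ACTG2 and CNN1 had at most 9 counts in any library. The summed level of the 6 was 36.2 and 33.5 CPM (counts scaled to a common total of 1e+06 per library) in knockdown libraries, 20.6 and 24.8 in knockout libraries and 19.7 and 16.8 in control libraries. Its members went apart: SMTN had 687 and 681 counts in knockdown libraries, 417 and 473 in knockout libraries and 321 and 272 in control libraries, while ACTA2 had 21 and 11 counts in knockdown libraries, 23 and 38 in knockout libraries and 66 and 54 in control libraries. SMTN was called higher in both depletions and ACTA2 lower in the knockdown (log2 change -1.99; adjusted p = 0.00312). Of 4 striated muscle markers, MYH7 and TNNT2 were at 0 in all 6 libraries and MYOD1 had 1 to 13 counts. ACTA1 had 31 and 16 counts in knockout libraries, 32 and 31 in knockdown libraries and 3 and 3 in control libraries, called higher in both depletions (log2 changes 2.85 and 3.24; adjusted p = 0.0116 and 0.0016). Of 4 fibroblast markers, COL1A2 was at 0 in all 6 libraries, THY1 had at most 4 counts, PDGFRB 3 to 21 and COL1A1 25 to 65. No leukocyte or endothelial marker exceeded 6 counts. The part of such cell type markers in the changes below was not tested. In such bulk RNA, fewer cells with a transcript and less transcript per cell cannot be told apart.

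In the PRMT1 knockdown many of these genes moved, and more of them fell than rose. Of the 45 tested, 21 (46.7%) were called lower and 10 (22.2%) higher than in control by edgeR's quasi-likelihood test at a Benjamini-Hochberg adjusted p under 0.05. Over all 17575 genes tested, 25.3% were called lower and 22.2% higher. The list was chosen with earlier results of these data known, so its shares are a description and not a test. Against all genes tested, the share called higher stood at the background, and the share called lower above it. That background holds low-count genes, while every tested gene of the list but TAGLN averaged more than 2 on the log2 CPM scale. Genes above that level were called more often. In their exon length classes from 2000 nt up, 22.7% to 38.5% were called lower and 19.7% to 40.8% higher. The median log2 change of the 45 was -0.21, beside -0.04 over all genes. The largest decrease was that of FLNA, at 2.20-fold lower, and the largest increase that of DIAPH1, at 2.66-fold higher.

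In the MLL2 knockout few of them were called in the main fit over all 6 libraries. Only 5 of 45 (11.1%) were called higher and 4 (8.89%) lower than in control, beside 10.3% and 12.1% of all genes. In this fit the counts thus stood near that background. Genes averaging more than 2 on the log2 CPM scale were called more often. In their exon length classes from 2000 nt up, 14.1% to 16.0% were called higher and 13.7% to 14.7% lower. The median log2 change of the 45 was 0.06, beside -0.01 over all genes. ACTB, CFL1, MYL6, CDC42 and ROCK1 were called higher, and FSCN1, RHOB, FLNC and CALD1 lower. Some other fits called more. With only the knockout and control libraries, 12 were called higher and 6 lower, beside 2668 and 2718 of 16575 genes. With offsets for exon length and GC content these were 8 and 7, beside 2161 and 2402 of 17350 genes. Both depletions were set against the same 2 control libraries, so their calls are not independent of each other.

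**Figure D1:**
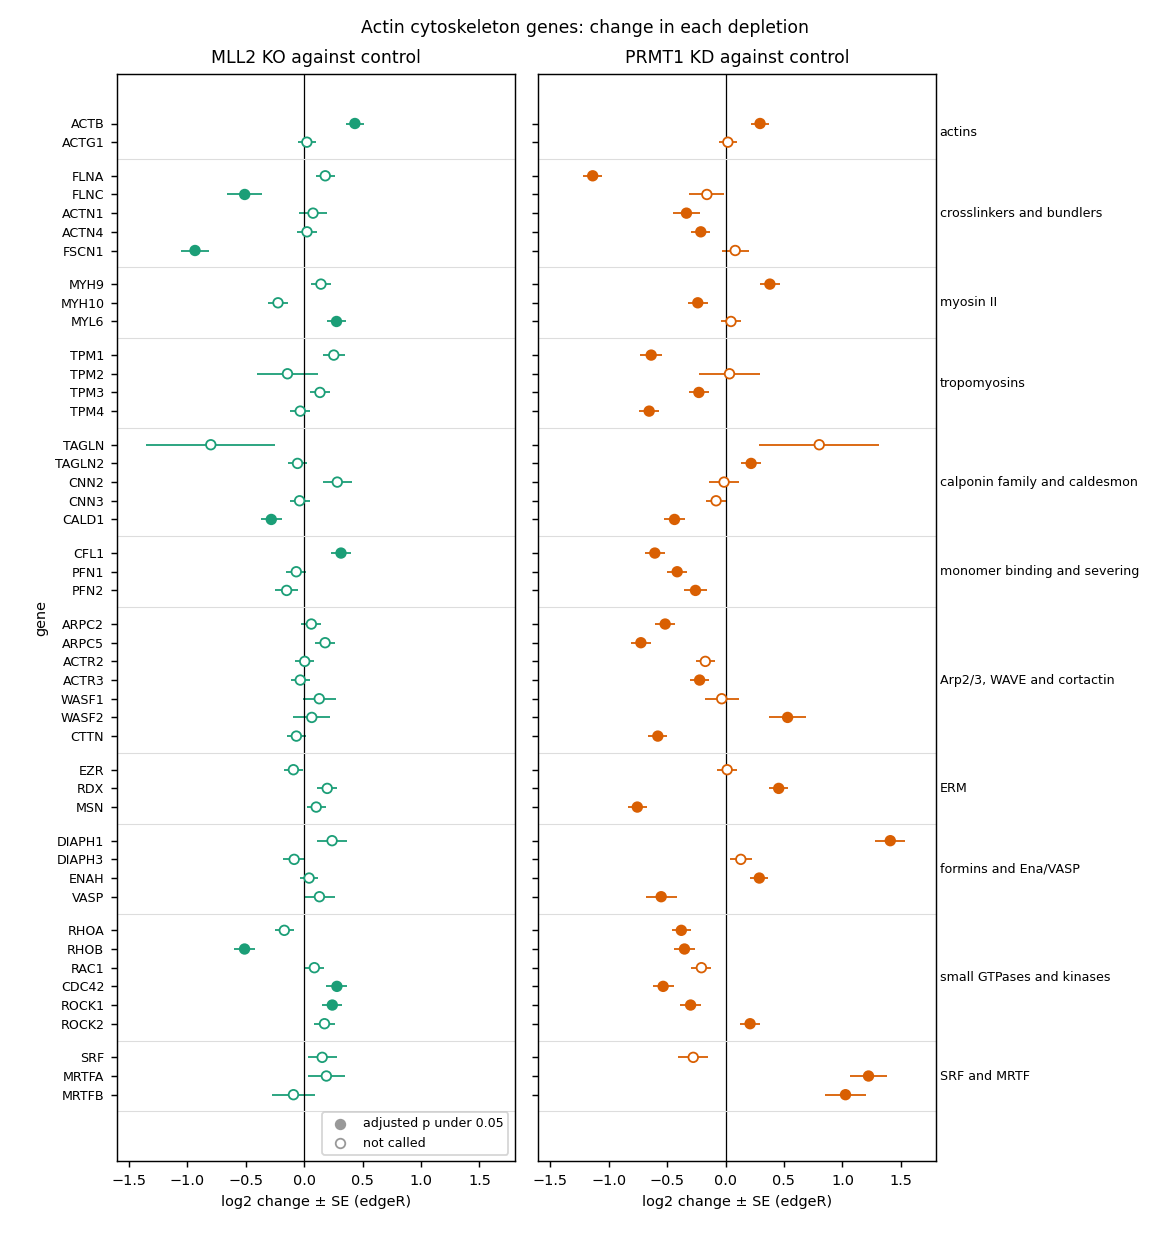
Log2 change against control of the 45 tested genes, grouped by role, in the MLL2 knockout (left) and the PRMT1 knockdown (right); points are estimates and bars are ± 1 SE, and filled points have an adjusted p under 0.05. Most filled points in the knockdown panel lie left of 0, while DIAPH1 at 1.41, MRTFA at 1.22 and MRTFB at 1.03 lie far to the right.

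Among the transcriptional regulators, both coactivators rose in the knockdown and SRF did not pass the test. MRTFA, a coactivator released by actin polymerisation, had 24.8 and 32.0 CPM in knockdown libraries, against 11.9 and 12.4 CPM in control libraries, a log2 change of 1.22 ± 0.16 (SE; adjusted p = 1.76e-06). MRTFB, its paralog, had 22.3 and 33.4 CPM in knockdown libraries and 14.97 and 12.4 CPM in control libraries (log2 change 1.03 ± 0.17; adjusted p = 5.82e-05). In both genes the second knockdown library was the higher, and the groups did not overlap. SRF, their DNA-binding partner, had 26.6 and 34.8 CPM in knockdown libraries and 37.9 and 36.5 CPM in control libraries (log2 change -0.28 ± 0.13; adjusted p = 0.0787). Without the second knockdown library SRF was called lower, at -0.48 (adjusted p = 0.00213). In the knockout none of the regulators passed the test. MRTFA had 13.6 and 14.2 CPM, MRTFB 13.1 and 12.7 CPM and SRF 43.4 and 39.5 CPM there, with log2 changes of 0.19, -0.09 and 0.15. Per kilobase of exon, MRTFA stood at 3.70 FPKM in the knockdown and 1.59 FPKM in control, and MRTFB at 1.68 FPKM in the knockdown and 0.827 FPKM in control, among the lowest levels of the list.

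The CArG box is written CC, then 6 bases each A or T, then GG, and reads as the same pattern on both strands. RefSeq promoters, from 250 bases before to 50 bases after a start, were at hand for 38 of the 46 genes, with 64 promoters in all. ACTB, CTTN, FSCN1, MYL9, PFN2, RAC1, TAGLN and WASF2 had no promoter at hand and were not searched. A CArG box lay in 7 of these 38 genes (18.4%), against 1.6% of the 27305 genes with a promoter, and in 10 of 116 other genes of the actin pathway (8.62%). The 7 were ACTG1, ACTN1, CNN2, FLNA, ROCK2, SRF and TPM4. The motif TATAAA, searched on both strands of the same windows, lay in 15.8% of the 38 genes and in 14.0% of all genes, and no CArG match held it. In the knockdown FLNA, TPM4 and ACTN1 fell, ROCK2 rose, and ACTG1, CNN2 and SRF did not pass the test, so the calls shared no direction. The only rise, that of ROCK2 at 0.21 (adjusted p = 0.0491), was called in 8 of 16 alternative fits. With offsets for exon length and GC content ROCK2 stood at 0.01. The call of ACTN1 was kept in 10 of the 16. The log2 changes of the genes not called were -0.28 for SRF, -0.01 for CNN2 and 0.02 for ACTG1. A match is a run of letters and does not show binding. The 4 promoters below, FLNA and TPM4 which fell and ACTG1 and SRF which were not called, are the 250 bases before the RefSeq start on build GRCh38.p14, read 5′ to 3′ on the gene's own strand, with CArG boxes in capitals. They lie at chrX:154374635-154374884 on the minus strand for FLNA, chr19:16067288-16067537 on the plus strand for TPM4, chr17:81512800-81513049 on the minus strand for ACTG1 and chr6:43171019-43171268 on the plus strand for SRF.
FLNA: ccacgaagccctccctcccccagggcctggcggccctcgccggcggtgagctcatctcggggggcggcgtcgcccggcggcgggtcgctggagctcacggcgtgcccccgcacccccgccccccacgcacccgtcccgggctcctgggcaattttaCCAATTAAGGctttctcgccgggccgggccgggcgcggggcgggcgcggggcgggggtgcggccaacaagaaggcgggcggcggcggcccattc
TPM4: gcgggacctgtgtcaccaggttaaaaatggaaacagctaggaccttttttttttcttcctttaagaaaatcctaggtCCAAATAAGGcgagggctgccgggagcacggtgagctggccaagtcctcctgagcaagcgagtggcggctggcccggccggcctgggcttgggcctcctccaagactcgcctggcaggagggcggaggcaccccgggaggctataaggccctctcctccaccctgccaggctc
ACTG1: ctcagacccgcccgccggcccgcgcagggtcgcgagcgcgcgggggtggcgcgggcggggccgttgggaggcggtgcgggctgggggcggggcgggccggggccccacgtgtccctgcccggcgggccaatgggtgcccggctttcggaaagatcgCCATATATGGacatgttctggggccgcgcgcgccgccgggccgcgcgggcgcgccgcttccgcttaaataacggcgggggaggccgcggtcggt
SRF: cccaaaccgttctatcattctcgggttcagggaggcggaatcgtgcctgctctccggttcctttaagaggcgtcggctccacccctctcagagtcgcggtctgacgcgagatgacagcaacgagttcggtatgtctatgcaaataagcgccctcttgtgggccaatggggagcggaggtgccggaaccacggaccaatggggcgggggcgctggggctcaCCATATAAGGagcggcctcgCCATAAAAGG
The match began 94 bases before the start in FLNA, 173 in TPM4 and 94 in ACTG1. SRF held 2 matches, beginning 30 and 10 bases before its start.

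Of the small GTPases and their kinases, 4 of 6 fell in the knockdown, 1 rose, and RAC1 did not pass the test. Over all genes 25.3% were called lower and 22.2% higher, and role groups this small were not tested as sets. CDC42, which drives filopodia and polarity, had 331 and 271 CPM in knockdown libraries, against 442 and 429 CPM in control libraries (log2 change -0.53 ± 0.09; adjusted p = 5.63e-05). RHOA, which drives stress fibres, had the highest level of the group, 461.5 and 407 CPM in knockdown libraries and 564 and 565 CPM in control libraries (log2 change -0.38 ± 0.08; adjusted p = 0.000744). These groups lay apart for both genes. RHOB, an endosomal and growth-factor-inducible relative of RHOA, had 98.7 and 84.8 CPM in knockdown libraries and 113 and 121 CPM in control libraries. Its log2 change was -0.35, but -0.08 with offsets for exon length and GC content. The kinases that RHOA activates moved apart, with ROCK1 at -0.30 and ROCK2 at 0.21 on the log2 scale (adjusted p = 0.00734 and 0.0491). RAC1, the GTPase of lamellipodia, stood at -0.21 (adjusted p = 0.0516), and was called without the first knockdown library at -0.28 (adjusted p = 0.0052).

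In the knockout the same GTPases behaved differently by gene. RHOB fell to 81.0 and 83.4 CPM in knockout libraries, against 113 and 121 CPM in control libraries (log2 change -0.51 ± 0.09; adjusted p = 0.000465). CDC42 rose to 545 and 513 CPM in knockout libraries, against 442 and 429 CPM in control libraries (log2 change 0.28 ± 0.09; adjusted p = 0.0295). ROCK1 had 126 and 139 CPM in knockout libraries and 114 and 109.7 CPM in control libraries (log2 change 0.24 ± 0.09; adjusted p = 0.0489). RHOA, at 514 and 490.2 CPM, had a log2 change of -0.17 (adjusted p = 0.154), RAC1 of 0.09 and ROCK2 of 0.17. For CDC42 and ROCK1 the knockdown lay below control and the knockout above it.

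The straight-filament factors split by member. DIAPH1, the formin that RHOA activates to build stress fibres, had 96.0 and 134 CPM in knockdown libraries, against 45.5 and 41.0 CPM in control libraries (log2 change 1.41 ± 0.13; adjusted p = 1.54e-08). Every knockdown value was more than 2 times every control value. ENAH, an Ena/VASP elongation factor, had 378 and 375 CPM in knockdown libraries and 314 and 302 CPM in control libraries (log2 change 0.29 ± 0.08; adjusted p = 0.00419), but with offsets for exon length and GC content the change was -0.02 (adjusted p = 0.869). VASP, its paralog, fell to 20.8 and 26.5 CPM in knockdown libraries, against 31.8 and 37.5 CPM in control libraries, a log2 change of -0.55. DIAPH3 stood at 0.13 and was not called. In the knockout none of the 4 was called, with log2 changes of -0.08 to 0.24; ENAH had 315 and 319.5 CPM there and DIAPH1 47.2 and 54.9 CPM.

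The branching machinery held 7 members, of which 4 fell and 1 rose in the knockdown, beside 25.3% and 22.2% of all genes. ARPC5, a subunit of the Arp2/3 complex, had 101 and 88.3 CPM in knockdown libraries and 151 and 162 CPM in control libraries (log2 change -0.72 ± 0.09; adjusted p = 9.49e-07). CTTN, cortactin, which stabilises branches, had 151 and 152 CPM in knockdown libraries and 217 and 235 CPM in control libraries (log2 change -0.58 ± 0.08; adjusted p = 5.4e-06). ARPC2, a core subunit that holds the mother filament, had 114 and 99.0 CPM in knockdown libraries and 149.5 and 155 CPM in control libraries (log2 change -0.52 ± 0.09; adjusted p = 5.39e-05). In all 3 the groups were well apart. ACTR3, an actin-related subunit, had 201 and 178 CPM in knockdown libraries, against 224 and 217.5 CPM in control libraries, a log2 change of -0.22, and -0.14 without the second knockdown library (adjusted p = 0.125). With offsets for exon length and GC content ACTR3 stood at -0.46 (adjusted p = 1.38e-05). ACTR2, the other actin-related subunit, stood at -0.17 and was not called, but was called at -0.22 without the second knockdown library (adjusted p = 0.0243). WASF2, the WAVE protein that activates the complex downstream of Rac, had 30.7 and 47.8 CPM in knockdown libraries and 25.5 and 28.9 CPM in control libraries (log2 change 0.53 ± 0.15; adjusted p = 0.00761). That rise rested on the second knockdown library, without which the change was 0.17 (adjusted p = 0.366). WASF1, the form enriched in brain, stood at -0.03. In the knockout no member of this machinery was called, and the changes spanned -0.07 to 0.18 on the log2 scale; ACTR3 had 217 and 215 CPM and CTTN 216 and 215 CPM there.

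All 3 monomer-binding and severing genes fell in the knockdown, where 25.3% of all genes were called lower. CFL1, cofilin, which severs and depolymerises old filaments, had 262 and 224 CPM in knockdown libraries, against 372 and 367 CPM in control libraries (log2 change -0.60 ± 0.09; adjusted p = 6.26e-06). In the knockout the same gene rose to 469 and 451 CPM (log2 change 0.32 ± 0.08; adjusted p = 0.0102), so the 3 groups did not overlap. PFN1, profilin, the main carrier of actin monomer, had 279.9 and 248 CPM in knockdown libraries and 337 and 365 CPM in control libraries, a log2 change of -0.41, but -0.05 with offsets for exon length and GC content (adjusted p = 0.54). PFN2, the form enriched in brain, was called at -0.26, and stood at -0.12 without the second knockdown library and -0.42 without the first. Neither profilin was called in the knockout, with log2 changes of -0.07 and -0.15.

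The 2 cytoplasmic actins were the most abundant transcripts of the list by CPM, and they did not move alike. ACTB, beta-actin, had 961 and 1043 CPM in knockout libraries, 896.5 and 923.5 CPM in knockdown libraries and 740.9 and 742.2 CPM in control libraries. It was called higher in the knockout (log2 change 0.43 ± 0.08; adjusted p = 0.000544) and in the knockdown (log2 change 0.30 ± 0.08; adjusted p = 0.00447), and neither depletion overlapped control. ACTG1, gamma-actin, had 1603 and 1682 CPM in knockout libraries, 1633 and 1643 CPM in knockdown libraries and 1624 and 1608 CPM in control libraries, with log2 changes of 0.02 and 0.02 that were not called. With offsets for exon length and GC content ACTG1 was called in the knockdown at 0.24 (adjusted p = 0.00184). ACTB made up 37.5% and 38.3% of the counts of both actins in knockout libraries, 35.4% and 36.0% in knockdown libraries and 31.3% and 31.6% in control libraries. The coding sequences of the actins are alike but were not compared here, so how many reads fit both is not known. Reads that fit both would score low in mapping quality, and the counts rest on the reads that could be placed. Per kilobase of exon in control, ACTG1 led the list at 553 FPKM, RHOA followed at 226, PFN1 at 219.8 and ACTB at 217, while TAGLN was lowest at 0.197.

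**Figure D2:**
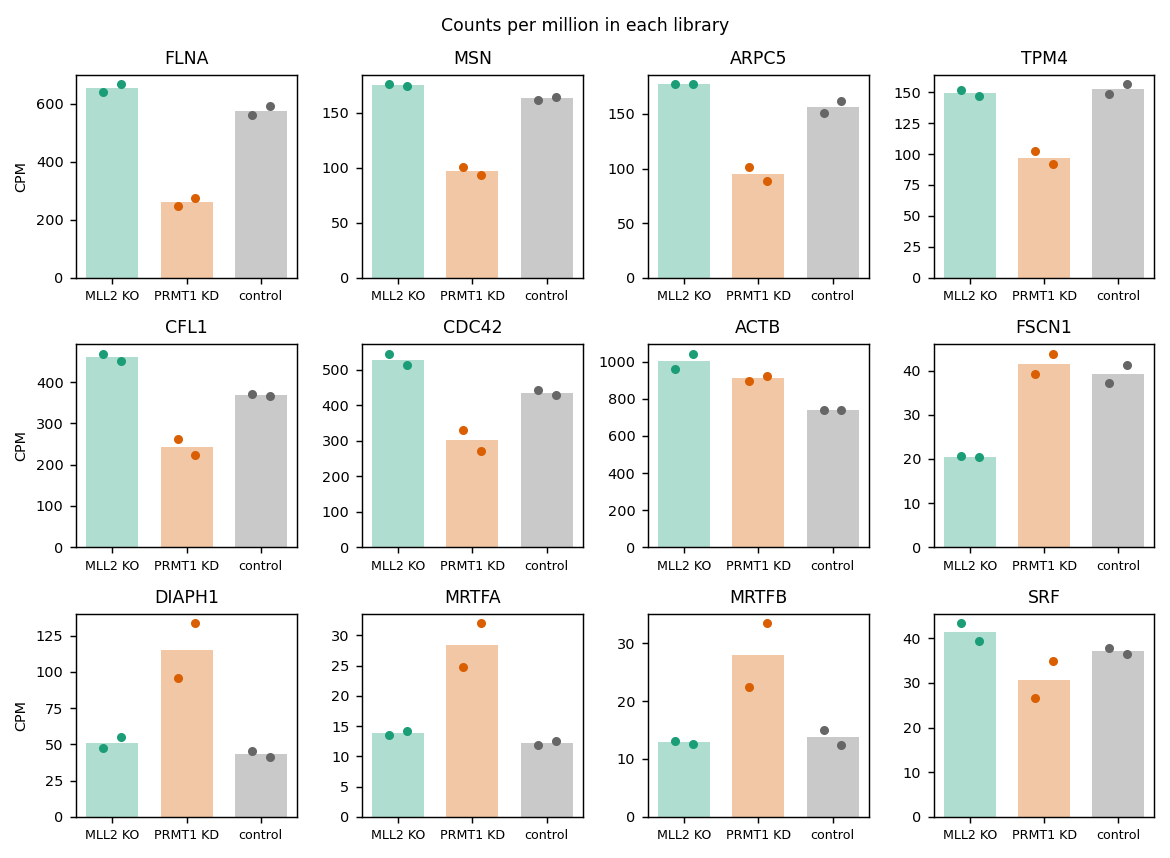
CPM in each library for 12 genes, with points for libraries and bars for the mean of the 2 libraries in the MLL2 knockout, the PRMT1 knockdown and control. The knockdown points of FLNA, MSN, ARPC5, TPM4, CFL1 and CDC42 all lie below control, those of DIAPH1, MRTFA and MRTFB lie above it, and those of FSCN1 in the knockout lie below both other groups.

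Among crosslinkers and bundlers, 3 of 5 fell in the knockdown and none rose, beside 25.3% and 22.2% of all genes. FLNA, filamin A, which crosslinks cortical filaments and ties them to integrins, had 249 and 276.5 CPM in knockdown libraries, against 561 and 593 CPM in control libraries (log2 change -1.14 ± 0.08; adjusted p = 8.17e-10). In the 16 alternative fits its change lay between -1.29 and -1.07. The alpha-actinins ACTN1 and ACTN4, which space filaments in bundles, were called at -0.33 and -0.21; ACTN1 depended on the library left out, at -0.16 without the first knockdown library and -0.54 without the second. FLNC, the muscle filamin, had 35.7 and 56.3 CPM in knockdown libraries, which spanned the 47.7 and 55.3 CPM of control libraries, and it was not called. Without the second knockdown library FLNC was called lower, at -0.53 (adjusted p = 0.000362).

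In the knockout the pattern of this group was another. FSCN1, fascin, which bundles filaments in filopodia, had 20.7 and 20.4 CPM in knockout libraries, against 37.2 and 41.1 CPM in control libraries (log2 change -0.93 ± 0.12; adjusted p = 1.2e-05). In knockdown libraries it had 39.1 and 43.8 CPM, which overlapped control (log2 change 0.08 ± 0.12; adjusted p = 0.581). FLNC had 33.9 and 38.5 CPM in knockout libraries, a log2 change of -0.51 ± 0.15 (adjusted p = 0.0193). FLNA had 641 and 668 CPM in knockout libraries, all above control, with a log2 change of 0.18 that was not called (adjusted p = 0.121). With offsets for exon length and GC content FLNA was called there, at 0.33 (adjusted p = 0.000483).

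Of the tropomyosins, which coat filaments and decide which motors and severing factors may bind, 3 of 4 fell in the knockdown. Over all genes 25.3% were called lower there. TPM4 had 102 and 92.1 CPM in knockdown libraries and 149 and 156.5 CPM in control libraries (log2 change -0.65 ± 0.09; adjusted p = 2.54e-06). TPM1 had 51.8 and 46.3 CPM in knockdown libraries and 75.9 and 76.3 CPM in control libraries (log2 change -0.64 ± 0.10; adjusted p = 1.43e-05). TPM3, the most abundant, had 316 and 274 CPM in knockdown libraries and 333 and 358 CPM in control libraries, a log2 change of -0.23, and -0.13 without the second knockdown library (adjusted p = 0.101). With offsets for exon length and GC content TPM3 stood at -0.51 (adjusted p = 5.82e-05). TPM2 had 4.34 to 6.14 CPM in all 6 libraries and overlapped between the groups. None was called in the knockout; TPM3 had 385 and 373 CPM there, and TPM1 86.6 and 95.02 CPM (log2 change 0.25; adjusted p = 0.0579).

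The calponin family and caldesmon bind along the filament side. CALD1, caldesmon, an inhibitor of actomyosin, fell in both depletions, to 61.7 and 61.9 CPM in knockout libraries and 55.3 and 55.6 CPM in knockdown libraries, against 75.5 and 74.5 CPM in control libraries. Its log2 changes were -0.28 ± 0.09 in the knockout (adjusted p = 0.0318) and -0.44 ± 0.09 in the knockdown (adjusted p = 0.000529). TAGLN2, a transgelin of non-muscle cells, was called at 0.22 in the knockdown, but stood at 0.12 without the first knockdown library (adjusted p = 0.166). With offsets for exon length and GC content TAGLN2 stood at 0.50 (adjusted p = 1.89e-06). CNN3, the most abundant of the group, had 234 and 222 CPM in knockout libraries, 238 and 205 CPM in knockdown libraries and 232 and 236 CPM in control libraries, and was not called. Without the first knockdown library CNN3 was called lower in the knockdown, at -0.20 (adjusted p = 0.0169). CNN2 was not called either. TAGLN, a marker of smooth muscle, stayed under 3 CPM in every library, at 0.693 and 0.785 CPM in knockout libraries, 1.55 and 2.94 CPM in knockdown libraries and 1.30 and 1.28 CPM in control libraries.

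The myosin II heavy chains moved in opposite directions in the knockdown. MYH9, the heavy chain of non-muscle myosin IIA, had 287 and 327 CPM in knockdown libraries and 233 and 239 CPM in control libraries (log2 change 0.38 ± 0.09; adjusted p = 0.00112). MYH10, the heavy chain of myosin IIB, had 316 and 354 CPM in knockdown libraries and 412 and 377 CPM in control libraries, a log2 change of -0.24 (adjusted p = 0.0244). In the knockout neither was called, with log2 changes of 0.14 for MYH9 and -0.22 for MYH10 (adjusted p = 0.0613). MYL6, the essential light chain, had 449 and 418 CPM in knockout libraries, 389.9 and 349 CPM in knockdown libraries and 343 and 372 CPM in control libraries. It was called higher in the knockout (log2 change 0.28 ± 0.08; adjusted p = 0.0222) and not in the knockdown.

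The ezrin, radixin and moesin genes, whose products tie the cortex to the plasma membrane, each took a course of its own in the knockdown. MSN had 100.5 and 93.1 CPM in knockdown libraries and 162 and 165 CPM in control libraries (log2 change -0.75 ± 0.08; adjusted p = 2.52e-07). RDX had 196 and 180.3 CPM in knockdown libraries and 141 and 134 CPM in control libraries (log2 change 0.45 ± 0.08; adjusted p = 0.000123). EZR had 194 and 172 CPM in knockdown libraries, which spanned the 184 and 178 CPM of control libraries (log2 change 0.01; adjusted p = 0.907). In the knockout none was called: MSN had 176 and 175 CPM, RDX 156 and 159 CPM and EZR 167 and 173 CPM.

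Set directly against the knockout, the knockdown had 19 genes of the list lower (42.2%) and 10 higher (22.2%), beside 21.4% and 19.4% of all genes. The median log2 difference was -0.16, beside 0.01 over all genes. This comparison does not use the control libraries in its difference, though it shares each depletion's libraries with the comparisons above. The decreases with the smallest adjusted p were those of FLNA (log2 difference -1.32 ± 0.08; adjusted p = 2.63e-10), CFL1 (-0.92 ± 0.09; adjusted p = 4.2e-08), MSN (-0.86 ± 0.08; adjusted p = 7.26e-08) and ARPC5 (-0.90 ± 0.09; adjusted p = 8.03e-08). The increases were those of DIAPH1 (1.17 ± 0.12; adjusted p = 2.62e-07), FSCN1 (1.02 ± 0.12; adjusted p = 8.33e-07), MRTFA (1.03 ± 0.15; adjusted p = 1.76e-05) and MRTFB (1.12 ± 0.18; adjusted p = 3.13e-05). CDC42 was lower in the knockdown by a log2 difference of -0.81 (adjusted p = 4.71e-07) and ROCK1 by -0.54 (adjusted p = 3.94e-05). SRF was lower in the knockdown at -0.43 (adjusted p = 0.00898), and at -0.26 without the first knockdown library (adjusted p = 0.105). ACTB did not pass the test between the depletions, with a log2 difference of -0.14 (adjusted p = 0.178).

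The knockdown moved with gene length across the whole transcriptome. Over genes averaging more than 2 on the log2 CPM scale, the median change against control was, in log2, -0.39 for the 959 genes with under 2000 nt of exon, -0.15 for the 2762 genes of 2000 to under 4000 nt, 0.01 for the 4936 genes of 4000 to under 8000 nt and 0.16 for the 2852 genes of 8000 nt and over. In the knockout the same medians lay between 0.00 and 0.04. The second knockdown library also differed from the first along length, by -0.18 in the shortest class and 0.09 in the longest. The medians of the actin list did not climb with length. Its 17 genes in the longest class had a median of -0.24, with 11 called lower and 5 higher, where 22.7% of all genes in the class were called lower and 40.8% higher. Its 14 genes of 2000 to under 4000 nt had a median of -0.02, with 4 called lower and 2 higher. In that class 38.5% of all genes were called lower and 19.7% higher. The list's 12 genes of 4000 to under 8000 nt had a median of -0.19, with 5 called lower and 3 higher. There 29.5% of all genes were called lower and 30.1% higher. FLNA, ARPC5, TPM1, TPM4 and CDC42, with 10642 to 16278 nt of exon, fell in the longest class, whose median was above 0. With offsets for exon length and GC content, the calls of ACTN4, PFN1, RHOB, ENAH and ROCK2 in the knockdown were lost. ACTN4 then stood at -0.14 (adjusted p = 0.141), RHOB at -0.08 and ROCK2 at 0.01 on the log2 scale. Other changes grew by more than 1.5 times with these offsets, to -0.84 for CDC42, -0.52 for ROCK1, -0.51 for TPM3, -0.46 for ACTR3, 0.50 for TAGLN2 and 0.44 for ACTB. FSCN1 was then called, at 0.30 (adjusted p = 0.0193). RDX, VASP and RHOA shrank by more than 1.5 times and kept their calls, at 0.29, -0.37 and -0.24. The part of length in the changes of single genes was not tested.

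**Figure D3:**
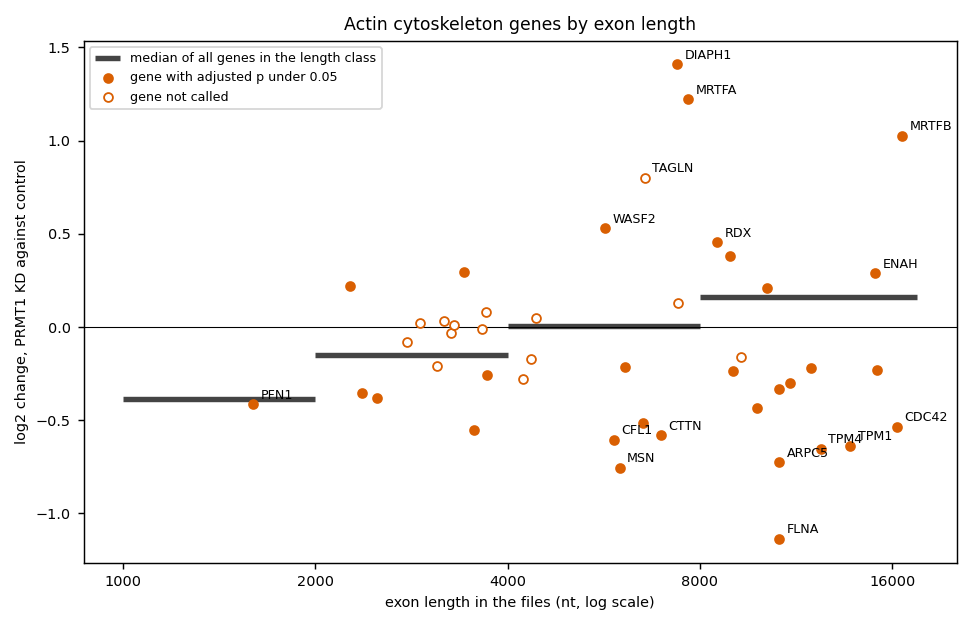
Log2 change in the PRMT1 knockdown against control by exon length (log axis) for the 45 tested actin genes; filled points have an adjusted p under 0.05, and dark bars give the median of all genes in each length class. The bars climb across the classes, by the medians of -0.39, -0.15, 0.01 and 0.16, while FLNA, ARPC5, TPM4, TPM1 and CDC42 sit far below the bar of the longest class.

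Other actin genes, 128 in 8 lists and none of them among the 46, gave a different balance. In the knockdown 34 of the 123 tested (27.6%) were called lower and 31 (25.2%) higher, beside 25.3% and 22.2% of all genes, with a median log2 change of -0.03. In the knockout 17 (13.8%) were called lower and 13 (10.6%) higher, beside 12.1% and 10.3%. The pooled shares thus stood near the background in both depletions, while single lists departed from it.

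Of 6 other subunits of the Arp2/3 complex, ARPC3 and ARPC4 rose in the knockdown, where ARPC2 and ARPC5 fell, and none fell. ARPC3 rose to 155 and 126 CPM in knockdown libraries, against 80.9 and 77.6 CPM in control libraries (log2 change 0.83 ± 0.10; adjusted p = 1.32e-06). ARPC4 had 49.9 and 47.2 CPM in knockdown libraries and 26.0 and 27.4 CPM in control libraries (log2 change 0.86 ± 0.12; adjusted p = 3.13e-06). The other 4 tested in that list were not called in the knockdown, with log2 changes of -0.18 for ARPC1B, -0.10 for ARPC1A, 0.09 for ACTR3B and 0.12 for ARPC5L. In the knockout ARPC5L, the paralog of ARPC5, was the only one called, at 0.41. Among partners of WAVE and WASP, CYFIP2, a subunit of the WAVE complex, fell to 19.4 and 21.0 CPM in knockdown libraries and to 46.1 and 43.8 CPM in knockout libraries, against 67.5 and 64.9 CPM in control libraries. Its log2 changes were -1.71 ± 0.11 in the knockdown (adjusted p = 1.37e-10) and -0.56 ± 0.10 in the knockout (adjusted p = 0.000569). ABI2, another WAVE subunit, fell by 0.62 on the log2 scale in the knockdown. WIPF2, which binds WASP proteins, rose by 1.17 in the knockdown, and NCKAP1, a WAVE subunit, by 0.35.

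Of 11 other formins, 3 (27.3%) were called lower in the knockdown, near the 25.3% of all genes, and none higher, beside 22.2%. DAAM2, a formin of Wnt signalling, had log2 changes of -1.21 in the knockdown and -0.65 in the knockout, and FMNL3 -0.82 in the knockdown. DIAPH2, a paralog of DIAPH1, was called lower in the knockout at -0.72 and not called in the knockdown, at -0.14. FHOD1 was called higher in the knockout, at 0.37.

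Of 23 turnover and capping factors, 10 (43.5%) were called lower in the knockdown and 4 (17.4%) higher, beside 25.3% and 22.2% of all genes. TMSB10, a beta-thymosin that sequesters monomer, fell by 0.71 on the log2 scale, and TWF1, twinfilin, which also binds monomer, by 0.61. TMOD2, a pointed-end cap, fell by 1.15, while its paralog TMOD1 rose by 1.41 at a low level, with 14.8 and 15.6 CPM in knockdown libraries and 5.89 and 5.56 CPM in control libraries. CFL2, the muscle cofilin, rose by 0.61, where CFL1 fell. In the knockout 4 (17.4%) were called higher and 4 (17.4%) lower, beside 10.3% and 12.1% of all genes. TWF1 and DSTN, a cofilin relative, rose by 0.50 and 0.53, GSN, gelsolin, which severs and caps, fell by 1.03, and TMSB4X fell by 0.40.

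Among other crosslinkers, spectrins and myosins, 9 of 22 (40.9%) were called higher in the knockdown and 7 (31.8%) lower, beside 22.2% and 25.3% of all genes. PLS3, plastin 3, a bundler with 1979 and 1718 CPM in knockdown libraries and 2918 and 2876 CPM in control libraries, had a log2 change of -0.65 (adjusted p = 3.09e-06). PALLD, palladin, fell by 0.50. ANLN, anillin of the cleavage furrow, and NF2, merlin, a relative of the ERM proteins, rose by 0.60 and 0.72. In the knockout ANLN and PALLD rose by 0.36 and 0.40, and MYO6 fell by 0.33.

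Of 20 other small GTPases and regulators, 8 (40.0%) rose and 5 (25.0%) fell in the knockdown, beside 22.2% and 25.3% of all genes. RAC3, a paralog of RAC1, had 37.6 and 31.1 CPM in knockdown libraries and 89.7 and 99.5 CPM in control libraries (log2 change -1.46 ± 0.10; adjusted p = 6.26e-10). ARHGAP5, a GTPase-activating protein, had 270.5 and 245 CPM in knockdown libraries and 118 and 114 CPM in control libraries (log2 change 1.15 ± 0.08; adjusted p = 7.9e-10). RHOU fell by 0.86 and TIAM1, an exchange factor for Rac, rose by 0.63. In the knockout RND3 and ARHGAP5 rose by 0.44 and 0.35, and RHOC, a paralog of RHOA, and DOCK1 fell by 0.55 and 0.43. Of 14 kinases and phosphatases, 3 (21.4%) rose and 2 (14.3%) fell in the knockdown. MYLK, myosin light chain kinase, fell by 1.19 in the knockout and 1.07 in the knockdown, and DAPK3 rose by 0.34 in the knockout and 0.72 in the knockdown. PPP1R12B, a myosin phosphatase subunit, rose by 0.85 and PAK1 fell by 0.45 in the knockdown.

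Of 20 known targets of SRF and MRTF, 15 were tested. In the knockdown 2 (13.3%) were called higher and 4 (26.7%) lower, beside 22.2% and 25.3% of all genes, so the share lower stood near the background. In the knockout 0 were called higher and 2 (13.3%) lower by the same edgeR test, beside 10.3% and 12.1%. ANKRD1 had 11.5 and 10.8 CPM in knockdown libraries and 2.05 and 2.71 CPM in control libraries (log2 change 2.23 ± 0.27; adjusted p = 7.64e-07), and CCN1 rose by 0.997 (adjusted p = 0.043); both are also known as targets of YAP. FOS had 1.06 and 0.439 CPM in knockdown libraries and 5.64 and 8.02 CPM in control libraries (log2 change -3.19 ± 0.41; adjusted p = 1.62e-06). VCL, vinculin of focal adhesions, fell by 0.41 in the knockdown and 0.25 in the knockout. FOS also fell in the knockout, by 1.33 on the log2 scale.

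**Figure D4:**
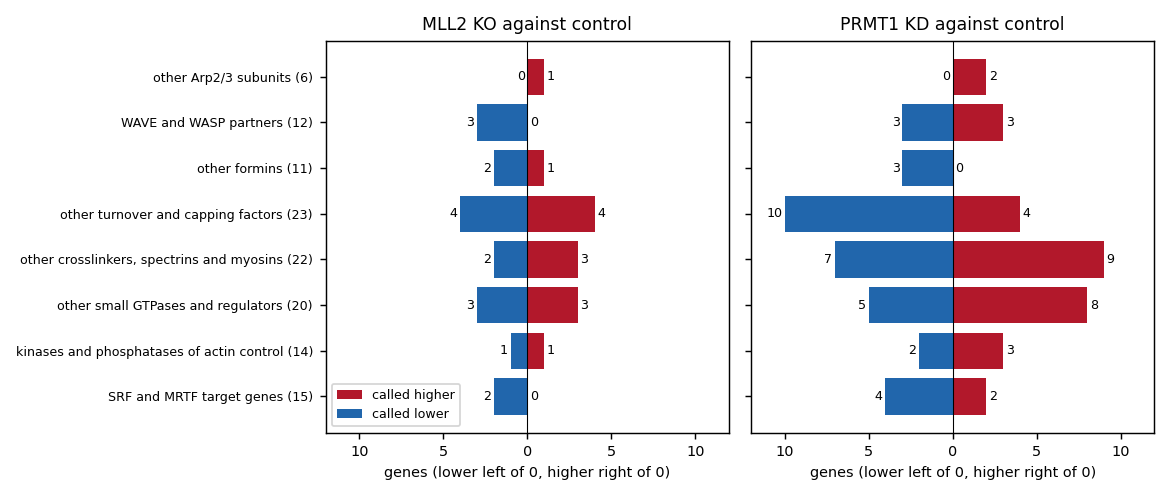
Number of genes called lower (left of 0) and higher (right of 0) in each of 8 lists of other actin pathway genes, in the MLL2 knockout and the PRMT1 knockdown against control; the number tested stands after each list's name. In the knockdown, turnover and capping factors have 10 called lower and 4 higher, and small GTPases and regulators 5 lower and 8 higher.

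Of the 31 calls in the knockdown, 17 held in all 16 alternative fits: ARPC2, ARPC5, CALD1, CDC42, CFL1, CTTN, DIAPH1, FLNA, MRTFA, MRTFB, MSN, MYH9, RDX, RHOA, TPM1, TPM4 and VASP. Leaving out a library ended 13 of the others. ACTB was lost without either control library (adjusted p = 0.0671 and 0.0632), RHOB without the second (adjusted p = 0.0573; log2 change -0.31), ENAH without the second (adjusted p = 0.0899; 0.25) and ROCK1 without the first (adjusted p = 0.0812; -0.27). MYH10 was lost without the first control library (-0.18; adjusted p = 0.249) or either knockout library. WASF2 and ACTN1 were lost without a knockdown library, as given above, or a control library, where WASF2 stood at 0.44 without the first (adjusted p = 0.0897) and ACTN1 at -0.31 and -0.38. ACTN4, ACTR3, PFN2, ROCK2, TAGLN2 and TPM3 were lost when any control or knockout library was left out, at adjusted p of 0.0533 to 0.322. Of the 9 calls in the knockout, ACTB, FSCN1 and RHOB held in all 16 alternatives. CALD1, CDC42, CFL1, MYL6 and ROCK1 were lost whenever a knockout or control library was left out, at adjusted p of 0.0597 to 0.422, with log2 changes of 0.24 to 0.33 for CDC42, 0.29 to 0.35 for CFL1, 0.22 to 0.34 for MYL6, 0.17 to 0.32 for ROCK1 and -0.29 to -0.27 for CALD1. FLNC was lost without the first knockout library (-0.42; adjusted p = 0.107) or the second control library (-0.40; adjusted p = 0.192). With either knockdown library left out, ARPC5, DIAPH1, FLNA, MYH9, RDX, TPM1 and TPM3 were called higher in the knockout and MYH10 and RHOA lower, with log2 changes close to those in all libraries.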

How the data were processed

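The authors deposited raw read counts for each gene in a separate file for each library. Total RNA was extracted with TRIzol and made into libraries with TruSeq Stranded Total RNA Gold, per the labels' protocols. Per the file headers, featureCounts 2.0.1 counted paired, reverse-stranded reads (setting 2) with mapping quality of at least 10 on GENCODE 34. The submitters' processing notes name FastQC 0.11.4, Trim Galore 0.6.10, STAR 2.7.5a, featureCounts 1.5.0-p1, DESeq2 1.36.0 and hg38, so the featureCounts version differs between sources.

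The counts of all 60669 genes were filtered with filterByExpr, scaled by TMM and fitted over all 6 libraries in edgeR 4.0.16 (R 4.3.3, limma 3.58.1) by a group term that left 3 residual degrees of freedom. P-values of the two-sided quasi-likelihood test were adjusted by Benjamini-Hochberg over 17575 genes and called under 0.05. CPM of single genes were computed from library totals after the count filter, scaled by TMM factors of 0.9687 to 1.077. FPKM were these CPM per kilobase of the exon length in the files. The summed CPM of the smooth muscle markers was computed from each library's whole count of 20061471 to 22351532. Alternatives were relative log expression and upper quartile scaling, 2 other count filters, the 2 groups alone, a replicate block, each library left out, offsets by spline (4 degrees of freedom) for exon length alone or with GC content (17350 genes, GENCODE 29), and DESeq2 1.42.0 with and without independent filtering. The main fit was also run on simulated counts, drawn from its own dispersions and without a length trend. That run cannot vouch for the calls made here.

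The 46 genes and all other lists were chosen with earlier results of these data known. The genes given in full were the 8 called per direction with the smallest adjusted p against control, the most abundant gene of each role group and 4 per direction between the depletions. Of each other list, up to 2 per direction and depletion were named, and some genes that this rule takes are not reported here. Promoter sequences are from RefSeq on GRCh38.p14.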

Additional observations from a re-analysis of the deposited data

How the results depend on the processing

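With 2 libraries a group and 3 residual degrees of freedom, single libraries move counts near the threshold, and fits without a library assume that the lone library of a group varies like the others. In the knockout 5 genes of the list were called higher; fits without a library gave 1 to 13, the 2 groups alone 12 and offsets for length and GC content 8. The 4 called lower became 7 with those offsets, 2 to 6 without a library and 6 with the 2 groups alone. Over all genes, the 3941 calls in the knockout ranged over 1908 to 5492 without a library, lowest without the second control library. The median of 0.0619 was 0.0278 under upper quartile scaling and 0.0413 to 0.0644 without a library.

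In the knockdown the 10 called higher were 6 to 9 without a library, and the 21 called lower were 15 with the 2 groups alone and 14 to 22 without a library. The median of -0.21 was -0.24 under upper quartile scaling, -0.17 under relative log expression, under DESeq2 with or without independent filtering, and with the 2 groups alone, -0.18 with no count filter beyond 1 count, -0.14 with offsets for exon length, -0.13 with length and GC content, and -0.21 to -0.14 without a library. Between the depletions 10 were called higher, beside 3401 of all 17575 genes, and 9 with the 2 groups alone, beside 3270 of 16789. That median of -0.16 was -0.14 under relative log expression, under DESeq2 with or without independent filtering, with no filter beyond 1 count and with at least 1 CPM in 2 libraries, -0.11 with either offset, and -0.18 to -0.15 without a library. No alternative moved a median of the list across 0.

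ENAH reversed in the knockdown at -0.0153 with offsets for length and GC content, and between the depletions at -0.0123 with offsets for length and -0.0122 with length and GC content, and ACTG1 reversed between the depletions at 0.16 with length and GC content. Without the second knockdown library, between the depletions, MYH9 stood at 0.14, RHOA at -0.12, TAGLN at 1.06 against 1.60 in all libraries, and WASF2 at 0.11; without the first knockout library MYH9 stood at 0.15. The cause was not tested.

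Whether replicate numbers pair the libraries is not known. Deviations of same-numbered libraries correlated at 0.06 between knockout and control, 0.04 between knockdown and control and 0.20 between knockdown and knockout over 11509 genes. Low correlations cannot exclude a shared culture or day. A replicate block raised the calls over all genes in the knockout from 3941 to 4512. With a replicate block the genes of the list called were 6 higher and 5 lower in the knockout, beside 2139 and 2373 of all genes. In the knockdown they were 10 and 22, beside 4095 and 4615, and between the depletions 11 and 20, beside 3587 and 3942. No call of the list was lost. Relative log expression shifted the balance of all calls in the knockdown to 4217 higher and 4224 lower, beside 3899 and 4439.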
